A study of Mus musculus with 24 samples.

Results

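Border macrophage genes were followed in the prefrontal cortex (PFC) of stressed and unstressed mice given dexamethasone or saline. The set had 8 named genes (Pf4, Mrc1, Cd163, Lyve1, F13a1, Ms4a7, Cbr2 and Stab1), taken by symbol from a table of normalized counts of 14074 genes. The 5 genes Pf4, Mrc1, Lyve1, Cbr2 and Stab1 had a row, and Cd163, F13a1 and Ms4a7 were not analysed here. The set was selected on measured values of these libraries, led by the fall of Pf4 after dexamethasone in mice with a passive coping strategy, so values of that contrast are given as a description.

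The animals were adult male C57BL/6 mice, 4 in each of 6 groups, each sequenced as 1 library. Stressed mice went through 30 days of chronic social defeat by aggressive CD1 males and were sorted by behaviour into a passive coping strategy (PS) or an active coping strategy (AS), whereas control mice (Con) were not defeated. Within Con, PS and AS, mice received an intraperitoneal injection of saline or of dexamethasone (DEX, 2 mg/kg), a synthetic agonist of the glucocorticoid receptor, and all tissue was taken 6 h later. All mice were injected, no group carried a transgene, and PS and AS are classes cut from behaviour within the same defeated animals.

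Border macrophages are the resident macrophages of the leptomeninges, the perivascular spaces and the choroid plexus. Unlike microglia, which sit in the parenchyma, they lie next to blood vessels and cerebrospinal fluid, take up proteins and debris, and carry scavenger receptors. They are few in cortex, so bulk tissue holds little of their RNA. Pf4 encodes platelet factor 4, a chemokine stored in platelet granules that is also made by border macrophages. Mrc1 encodes the macrophage mannose receptor, Stab1 the scavenger receptor stabilin and Lyve1 a hyaluronan receptor shared with lymphatic endothelium. Cbr2 encodes a carbonyl reductase. Among the genes not analysed here, Cd163 encodes the scavenger receptor for haemoglobin bound to haptoglobin, F13a1 a subunit of a coagulation factor, and Ms4a7 a membrane-spanning protein of macrophages.

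The promoters of the measured genes are shown because these genes share a cell type but, as described further on, did not move alike after DEX. RefSeq windows on GRCm38.p6, from 250 bases before to 50 bases after the annotated start, were matched for 4 of the 5 measured genes (Pf4, Mrc1, Cbr2 and Stab1); Lyve1 was not matched. The 100 bases before the start are printed for 3 of them, a stretch chosen after the matches were seen so that it holds a match. Capitals mark the core GAGGAA, or its complement TTCCTC, of the motif bound by PU.1, the transcription factor of the myeloid lineage.
Pf4, chr5:90772335-90772434, plus strand: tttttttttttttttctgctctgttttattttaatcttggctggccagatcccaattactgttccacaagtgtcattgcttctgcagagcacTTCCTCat
Mrc1, chr2:14229314-14229413, plus strand: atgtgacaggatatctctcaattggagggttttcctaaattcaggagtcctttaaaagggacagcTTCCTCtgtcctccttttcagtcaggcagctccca
Stab1, chr14:31168642-31168741, minus strand: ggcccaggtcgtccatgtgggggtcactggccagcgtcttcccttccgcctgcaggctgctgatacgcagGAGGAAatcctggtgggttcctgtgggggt
In these windows the PU.1 core, searched on both strands, was present in 4 of 4 matched genes. It lay at bases -8 to -3 from the start in Pf4, at -35 to -30, -167 to -162 and -180 to -175 in Mrc1, at -79 to -74 in Cbr2 and at -30 to -25 in Stab1. Among all 32851 promoter windows, 28.3% held it. Positions count from the RefSeq start. For Mrc1 and Cbr2 that start lies inside the gene span given below, and so does the PU.1 match of Cbr2. The hexamer TGCTGA, recognised by MAF transcription factors of macrophages, was found in Cbr2 at 41 to 46 and in Stab1 at -43 to -38, and in 19.5% of all windows. The hexamer TGTTCT, bound by each subunit of the glucocorticoid receptor, was found in 0 of the 4 windows and in 19.0% of all windows, and the full palindromic glucocorticoid response element in 0 of 4 and in 0.00913% of all. These matches describe letters in short windows and say nothing of binding.

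All 5 measured genes were of low or middling abundance. Pf4 (chromosome 5, 90772435 to 90773383, plus strand, GRCm38) had a mean normalized count of 20.4 over the 24 libraries and rested on 3 to 60 reads a library, with 6 libraries under 10 reads. Cbr2 (chromosome 11, 120729489 to 120732114, minus strand) had a mean of 35.8 on 17 to 79 reads, and Lyve1 (chromosome 7, 110850607 to 110863239, minus strand) one of 60.8 on 23 to 125 reads. Mrc1 (chromosome 2, 14229392 to 14332057, plus strand) averaged 213.6 on 82 to 484 reads, and Stab1 (chromosome 14, 31139013 to 31168641, minus strand) 698.6 on 430 to 1587 reads. Per kilobase of annotated exon, the mean normalized counts were 67.9 for Stab1, 33.5 for Mrc1, 28.3 for Pf4, 27.0 for Cbr2 and 20.8 for Lyve1, so that the gap between Stab1 and Pf4 was much smaller than on the count scale.

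Library depth ran from 21121869 to 59439645 reads (median 24420129), and the deepest libraries were in PS saline and AS DEX. Replicate libraries differed by more than counting noise in each of 36 pairs. The mice responded to the drug: Fkbp5, a classic target of the glucocorticoid receptor, rose by 2.26 (SE 0.11) on the log2 scale in Con, 2.00 in PS and 1.91 in AS. Markers of sources other than macrophages were examined beside the set. Platelet genes (11 genes, Ppbp and Itga2b among them), genes of monocytes and neutrophils (10 genes) and choroid plexus genes (5 genes) had no measured member and were not analysed here, so platelet RNA as a source of Pf4 could not be measured through them. The 5 measured genes of the set were detected in all libraries, and none was at 0 in any library. The measured genes of the other lists were not at 0 in any library either, and Cd163, F13a1 and Ms4a7 had no row. Detection therefore tells little about the presence of these cells. In bulk tissue, fewer cells of a type and less RNA per cell cannot be told apart.

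Pf4 was lower after DEX in both stressed phenotypes. In PS mice given saline, Pf4 stood at 35.7, 28.1, 47.3 and 22.1 normalized counts, and in PS mice given DEX at 8.57, 7.76, 4.86 and 13.1. All 4 DEX libraries lay below all 4 saline libraries. The fitted difference on the scale log2(normalized count + 1) was -1.86 (SE 0.44), and no other of the 14074 genes had a lower value in this contrast, which is the one that led to the choice of the set and is given without a test.

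In AS mice, Pf4 stood at 22.4, 33.5, 34.0 and 35.9 normalized counts with saline and at 1.97, 11.9, 13.2 and 21.9 with DEX. The 2 groups did not overlap, though the highest DEX library came within 1 normalized count of the lowest saline library. Pf4 fell by 1.60 (SE 0.44) on the log2 scale (limma, Benjamini-Hochberg adjustment over all 14074 genes, adjusted p = 0.0308). The lowest library, AS DEX mouse 38, held only 3 Pf4 reads, and without it the value was -0.99 (adjusted p = 0.111). In a fit of the 2 groups alone the adjusted p was 0.146, and with a pseudocount of 8 the value was -1.05 (adjusted p = 0.0172).

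In Con mice, Pf4 was narrow with saline, at 20.2, 23.4, 23.8 and 22.3 normalized counts, and wide with DEX, at 23.5, 18.1, 8.34 and 8.13. Of the Con DEX libraries, 1 lay within the saline range and 3 lay below it, with the lowest pair at under 10 reads. The log2 difference was -0.73 (SE 0.44, limma, adjusted p = 0.478), with a 95% interval from -1.64 to 0.18. The DEX response of Pf4 was more negative than in Con by 1.13 (SE 0.62) in PS, a value that holds the contrast used for the choice, and by 0.87 (SE 0.62, adjusted p = 0.583) in AS, so a difference between phenotypes was not detectable for this gene.

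Ordered by mean normalized count, Pf4 ran from PS saline (33.3 ± 10.9, SD, n = 4) and AS saline (31.5 ± 6.10) through Con saline (22.4 ± 1.57) to Con DEX (14.5 ± 7.58), AS DEX (12.2 ± 8.15) and PS DEX (8.56 ± 3.40). Each pair of neighbours in this order overlapped. Over all phenotypes, saline libraries spanned 20.2 to 47.3 and DEX libraries 1.97 to 23.5, and 10 of 12 DEX libraries lay below the lowest of 12 saline libraries. Those counts include the PS libraries, whose contrast led to the choice of the set. The split is thus a description and was not tested. The plot of values by library shows this split for Pf4 and the different patterns of the other 4 genes.

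**Figure D1:**
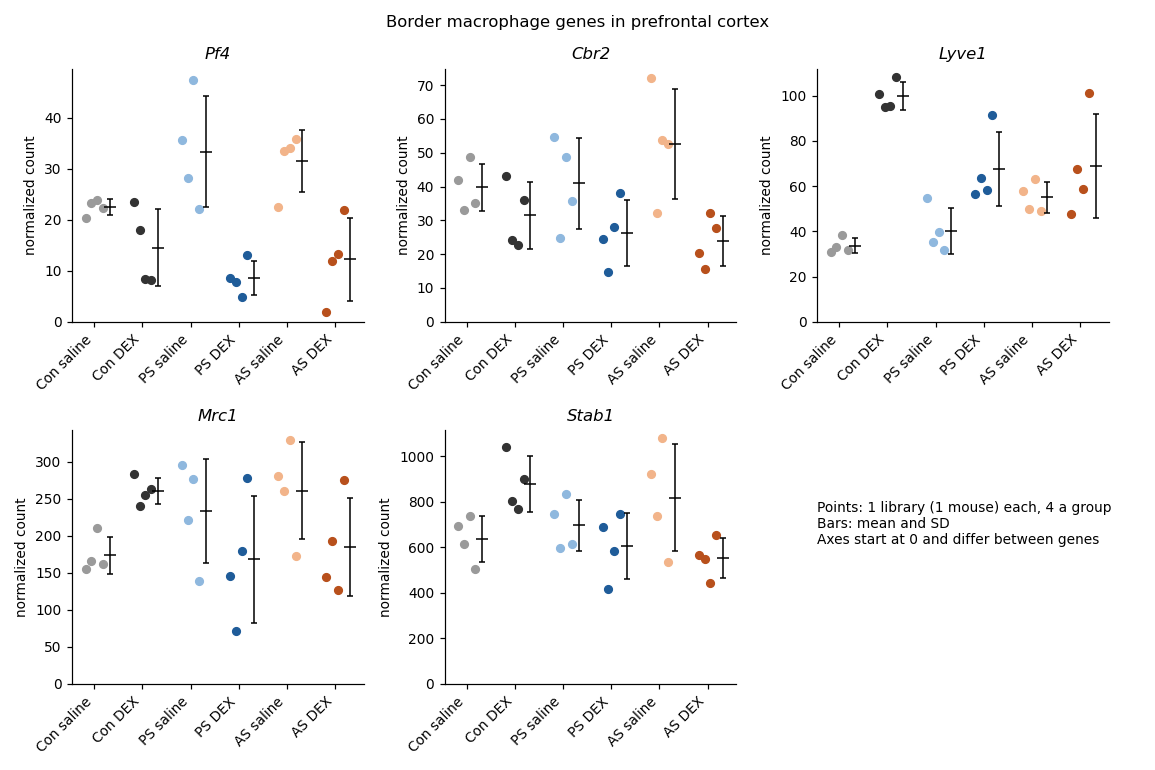
Normalized counts (vertical axes, each from 0) of Pf4, Cbr2, Lyve1, Mrc1 and Stab1 in the 6 groups; each point is 1 library and the bars are the mean and SD of 4. Pf4 was at 4.86 to 13.1 in PS DEX against 22.1 to 47.3 in PS saline, while Lyve1 was at 95.1 to 108 in Con DEX against 31.0 to 38.5 in Con saline.

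Lyve1 moved the other way. In Con mice it stood at 31.0, 33.2, 38.5 and 31.7 normalized counts with saline and at 101, 95.1, 95.3 and 108 with DEX. The groups were far apart and each was narrow. Lyve1 rose by 1.55 (SE 0.20) on the log2 scale, a fold of 2.92 (limma, adjusted p = 1.48e-05), and stayed past the threshold in all 31 alternative settings (1.37 to 1.61). It was the 1 gene of the 5 called in this contrast, and the 1 called higher, where 6.49% of all genes were called in either direction and 4.03% were higher.

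In PS mice Lyve1 stood at 54.8, 35.1, 39.7 and 31.5 normalized counts with saline and at 56.3, 63.8, 58.3 and 91.4 with DEX. All 4 DEX libraries were above all 4 saline libraries, by a narrow margin at the nearest pair. The log2 difference was 0.73 (SE 0.20), as a description. In AS mice the values were 57.9, 49.9, 63.3 and 49.0 with saline and 47.9, 67.7, 58.6 and 101 with DEX. Here the groups overlapped, and the log2 difference was 0.27 (SE 0.20, limma, adjusted p = 0.528).

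The DEX response of Lyve1 was smaller in AS than in Con by 1.27 (SE 0.28) on the log2 scale, an interaction term of the same fit (limma, adjusted p = 0.0744). Lyve1 was the 1 of the 5 genes called there, against 0.348% of all genes. Both sides of the term moved: AS saline libraries (49.0 to 63.3) were all above Con saline libraries (31.0 to 38.5), and 3 of the 4 AS DEX libraries were below the lowest Con DEX library (95.1). The call was lost without any 1 of 10 libraries, namely Con saline mice 106, 107 and 117, Con DEX mice 101, 108 and 122, AS saline mice 8 and 40 and AS DEX mice 38 and 42, with log2 values from -1.29 to -1.12 and adjusted p from 0.111 to 0.207. It was also lost with library size as a covariate (-1.23, adjusted p = 0.109). A negative term was not particular to Lyve1. For lists described further on, its median was -0.98 for fibroblasts, -0.89 for blood endothelium and -1.03 for mural cells. It was -0.98 for other border macrophage genes, 0.21 for neurons and 0.00 for all genes. No gene of these lists was called.

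Mrc1 and Stab1, the 2 most abundant genes of the set, shared a pattern that differed from those of Pf4, Cbr2 and Lyve1. As given further on, the medians of vessel and fibroblast genes had the same signs. In Con mice Mrc1 stood at 155, 166, 210 and 162 normalized counts with saline and at 283, 241, 255 and 264 with DEX. Stab1 stood at 695, 614, 735 and 505 with saline and at 1040, 802, 770 and 902 with DEX. For both, all 4 DEX libraries were above all 4 saline libraries, a separation whose share among all genes was not counted. The log2 differences were 0.59 (SE 0.30, adjusted p = 0.355) for Mrc1 and 0.47 (SE 0.19, adjusted p = 0.205) for Stab1 in limma, and neither passed the threshold of 0.1. In a fit of the Con groups alone, where the spread of the stressed mice did not enter, both passed it (adjusted p = 0.0149 and 0.0732).

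In stressed mice the same genes did not rise. In PS mice Mrc1 stood at 296, 222, 276 and 139 with saline and at 146, 70.7, 180 and 277 with DEX, and the groups overlapped. The log2 difference was -0.57 (SE 0.30). Stab1 in PS stood at 745, 596, 833 and 614 with saline and at 687, 415, 582 and 745 with DEX, with a log2 difference of -0.22 (SE 0.19). In both genes PS DEX mouse 34 was the lowest of all 24 libraries.

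In AS mice Mrc1 stood at 281, 261, 329 and 173 with saline and at 145, 192, 127 and 275 with DEX, a log2 difference of -0.52 (SE 0.30, limma, adjusted p = 0.383). Stab1 stood at 921, 738, 1080 and 535 with saline and at 567, 548, 443 and 655 with DEX, a log2 difference of -0.53 (SE 0.19, limma, adjusted p = 0.108). Both genes overlapped between saline and DEX; in each, AS saline mouse 44 was the lowest of its group and AS DEX mouse 72 the highest. Stab1 passed the threshold without mouse 44 (-0.72, adjusted p = 0.0145), without mouse 72 (-0.62, 0.0916), without Con saline mouse 117 (adjusted p = 0.0977) or PS DEX mouse 34 (0.0667), and in edgeR (0.0696) and DESeq2 (0.0307).

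For the difference between the DEX responses of AS and Con, the limma values were -1.12 (SE 0.42, adjusted p = 0.231) for Mrc1 and -0.997 (SE 0.27, adjusted p = 0.113) for Stab1. Stab1 passed the threshold there in DESeq2 (-1.03, adjusted p = 0.0184) and without any 1 of 5 libraries (Con DEX mouse 112, PS DEX mice 34 and 56, AS saline mouse 44 and AS DEX mouse 72, adjusted p from 0.033 to 0.0999).

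Cbr2 was lower after DEX in AS mice. It stood at 72.0, 32.05, 53.8 and 52.5 normalized counts with saline and at 20.3, 15.7, 32.2 and 27.6 with DEX. The lowest saline library and the highest DEX library met at about 32, and the other libraries were apart. Cbr2 fell by 1.10 (SE 0.30) on the log2 scale (limma, adjusted p = 0.0298). The call was lost without AS saline mouse 8 (-0.93, adjusted p = 0.135) or without AS DEX mouse 42 (-0.92, adjusted p = 0.129). With Pf4, 2 of the 5 genes were called in AS, both lower, where 8.77% of all genes were called in either direction and 4.95% were lower.

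In Con mice Cbr2 stood at 41.8, 33.2, 48.7 and 35.2 normalized counts with saline and at 43.1, 24.1, 22.6 and 36.0 with DEX, a log2 difference of -0.36 (SE 0.30, limma, adjusted p = 0.655). In PS mice it stood at 54.8, 24.8, 48.6 and 35.7 with saline and at 24.5, 14.6, 27.9 and 38.1 with DEX, a log2 difference of -0.63 (SE 0.30). Both pairs of groups overlapped. In the PS contrast 2 of the 5 genes, Pf4 and Lyve1, were past the threshold in opposite directions, beside 5.36% of all genes, and nothing is read from this count since that contrast chose the set.

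**Figure D2:**
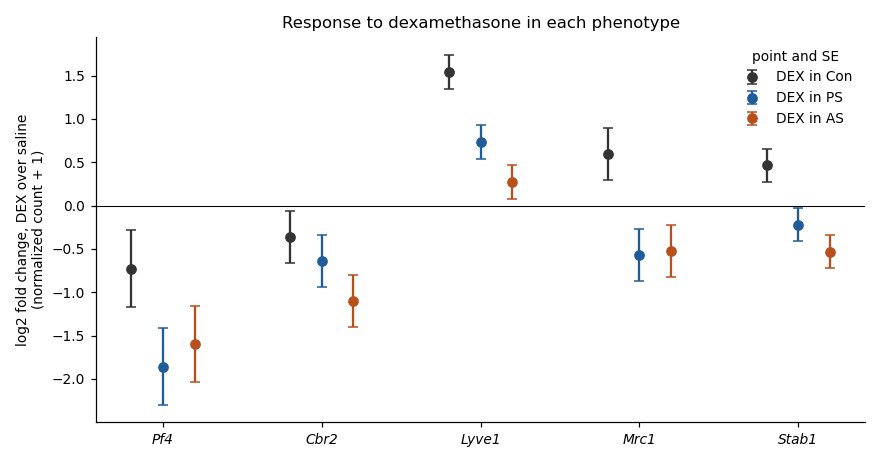
Log2 fold change of DEX over saline on the scale log2(normalized count + 1) for the 5 genes (horizontal axis) in Con, PS and AS mice; points are fitted values and bars the SE. Lyve1 lies above 0 in all 3 phenotypes (1.55, 0.73 and 0.27), Pf4 and Cbr2 lie below 0 in all 3, and Mrc1 and Stab1 lie above 0 in Con and below 0 in PS and AS.

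Because the genes moved unequally, their proportions within a library changed. The ratio of Lyve1 to Mrc1 normalized counts, which does not depend on library scaling, was 0.183 to 0.20 in Con saline and 0.355 to 0.410 in Con DEX. In PS it was 0.144 to 0.227 with saline and 0.324 to 0.902 with DEX, and in AS 0.191 to 0.283 with saline and 0.330 to 0.461 with DEX. Every DEX library was thus above every saline library of any phenotype in this ratio. The highest value, 0.902 in PS DEX mouse 34, came from the library with the lowest Mrc1 level.

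The ratio of Pf4 to Mrc1 went down. It was 0.113 to 0.141 in Con saline against 0.0308 to 0.0829 in Con DEX, and 0.121 to 0.171 in PS saline against 0.0270 to 0.110 in PS DEX. In AS it was 0.0798 to 0.207 with saline and 0.0136 to 0.104 with DEX, where the groups overlapped. Stab1 to Mrc1 stayed within 2.38 to 5.88 over the 6 groups, and saline and DEX overlapped in each phenotype. These ratios were chosen after the levels were seen and were not tested.

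**Figure D3:**
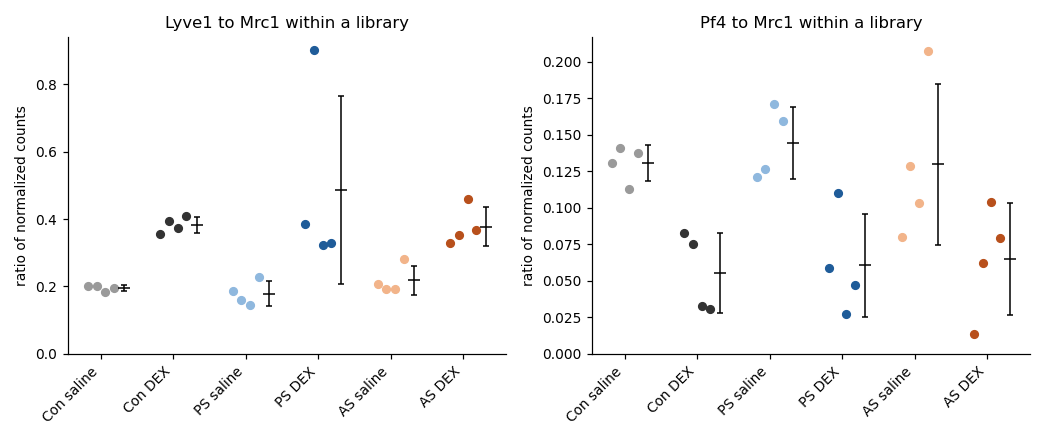
Ratio of normalized counts within each library (vertical axes from 0) for Lyve1 to Mrc1 and Pf4 to Mrc1 in the 6 groups; each point is 1 library and the bars are the mean and SD of 4. Lyve1 to Mrc1 was at most 0.283 in saline libraries and at least 0.324 in DEX libraries.

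With saline, no gene of the set was called between phenotypes. In PS against Con with saline, 0 of the 5 genes were called by limma, edgeR or DESeq2 (1.51% of all genes were called by limma), and 0 had an unadjusted p under 0.05 (13.1% of all genes). The log2 differences ran from 0.00 for Cbr2 to 0.50 (SE 0.44) for Pf4. In AS against Con with saline, 0 of the 5 were called by any of the 3 tools (0.156% of all genes by limma), and 1 had an unadjusted p under 0.05 (11% of all genes). That gene was Lyve1, with a log2 difference of 0.69 (SE 0.20, limma, adjusted p = 0.235). All 4 AS libraries were above all 4 Con libraries, a separation whose share among all genes was not counted. In AS against PS with saline, 0 of the 5 were called by any of the 3 tools (0% of all genes by limma), and 1, again Lyve1 (0.46, SE 0.20), had an unadjusted p under 0.05 (4.77% of all genes).

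Among mice given DEX, levels in stressed mice were set against Con, comparisons that were added after the values were seen. In PS against Con, 0 of the 5 genes were called by limma, edgeR or DESeq2 (0.199% of all genes by limma), and 3 had an unadjusted p under 0.05 (14% of all genes). Those were Mrc1 (-0.78, SE 0.30), Lyve1 (-0.58, SE 0.20) and Stab1 (-0.56, SE 0.19), with limma adjusted p of 0.261, 0.214 and 0.216. For Lyve1 and Stab1 all PS DEX libraries lay below all Con DEX libraries. The share of all genes with such a separation was not counted, here or for AS below. Without PS DEX mouse 56, Mrc1 (-1.08) and Lyve1 (-0.74) passed the threshold, each at an adjusted p of 0.0948. In AS against Con, 0 of the 5 were called by limma or edgeR (0.867% of all genes by limma), 1 was called by DESeq2 and 2 had an unadjusted p under 0.05 (13.4% of all genes). The DESeq2 call was Stab1 (-0.67, adjusted p = 0.0282; limma -0.67, SE 0.19, adjusted p = 0.119), with all AS DEX libraries below all Con DEX libraries. Stab1 passed in limma without Con DEX mouse 112, PS DEX mouse 34 or AS saline mouse 44 (adjusted p from 0.0592 to 0.0832).

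The difference between the DEX responses of PS and Con holds the contrast that chose the set, so nothing is read from it. It was below 0 for all 5 genes, with 0 past the threshold in limma, edgeR or DESeq2 (0% of all genes by limma) and 3 at an unadjusted p under 0.05 (9.98% of all genes). For AS minus PS, a comparison also added later, 0 of the 5 were called by any of the 3 tools (0% of all genes by limma), and 0 had an unadjusted p under 0.05 (2.44% of all genes). PS and Con, and AS and Con, share the Con libraries, so these comparisons are not independent of each other.

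Other genes reported for border macrophages, a list of 16, had 4 measured members (Dab2, Ms4a6c, Tgfbi and Colec12). Ms4a6c, a membrane-spanning gene of myeloid cells, rose in Con by 1.60 (SE 0.27) on the log2 scale (limma, adjusted p = 0.000445), and was at 0.93 (SE 0.27) in PS and 0.43 (SE 0.27, adjusted p = 0.440) in AS. Its 3 values were thus ordered as those of Lyve1. Dab2, an endocytic adaptor, fell in AS by 0.71 (SE 0.22, adjusted p = 0.0647), and was at 0.18 in Con and -0.56 in PS (SE 0.22 each, adjusted p = 0.795 and 0.221). Colec12, a scavenger receptor, was at 0.66 (SE 0.27) in Con, -0.42 in PS and -0.40 in AS, and Tgfbi was at 0.00, -0.72 and -0.59, without a call. The list's median was 0.42 in Con, -0.49 in PS and -0.50 in AS, over genes that went both ways in PS and AS. The medians of the 5 genes of the set were 0.47, -0.57 (from the contrast that chose the set) and -0.53, and those of all genes -0.01, 0.00 and 0.00. Medians of so few genes were not tested.

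Partners of these receptors were examined as a list of scavenging, heme handling and growth factor genes, with 9 of 16 measured. In Con, where 4.03% of all genes rose, 1 rose, Slc40a1, the iron exporter ferroportin (0.54, SE 0.15, limma, adjusted p = 0.0381). In AS, where 4.95% of all genes fell, 2 of the 9 fell, Mrc2 (-0.76, SE 0.24, adjusted p = 0.0694), a collagen receptor of the mannose receptor family, and Csf1 (-0.36, SE 0.10, adjusted p = 0.0311), a growth factor for macrophages. Il34, which acts on the same receptor as Csf1, was at 0.03, -0.04 and -0.11 in Con, PS and AS.

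Other myeloid genes gave a different picture from Lyve1. Of 12 microglia genes, all measured, 1 rose and 2 fell after DEX in Con, 6 fell in PS and 7 fell in AS (medians -0.12, -0.44 and -0.39). Over all genes, 4.03% rose and 2.46% fell in Con, 2.62% fell in PS and 4.95% fell in AS. Cx3cr1, the fractalkine receptor, was at -0.27 (SE 0.11), -0.83 and -0.73. Of 13 measured genes shared by microglia and macrophages, 1 fell in Con, 3 in PS and 4 in AS. Csf1r, the receptor for Csf1 and Il34, was at 0.15 (SE 0.08), -0.10 and -0.21 and was not called. The 4 measured MHC class II genes, which present antigen on a part of border macrophages and on activated microglia, fell in PS and in AS, 4 of 4 each (medians in Con, PS and AS -0.12, -1.15 and -1.29). Cd74 was at -0.24 (SE 0.25), -1.10 and -0.96.

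Markers of the vessels and meninges next to which border macrophages lie shared the signs of Mrc1 and Stab1 in their median DEX responses. For 10 blood endothelium genes the median log2 difference was 0.27 in Con, -0.27 in PS (1 lower) and -0.61 in AS (5 lower). For 10 measured genes of leptomeningeal and perivascular fibroblasts it was 0.31 (1 higher), -0.63 and -0.53 (1 lower), and for 7 mural cell genes 0.30, -0.26 and -0.72 (3 lower). Of all genes, 4.03% were called higher in Con, and 2.62% were called lower in PS and 4.95% in AS. For 5 measured red blood cell genes the median was 0.36, -0.80 and -0.19. With saline, the medians of PS and of AS against Con were -0.04 and 0.07 for endothelium. They were 0.43 and 0.54 for fibroblasts and -0.03 and 0.32 for mural cells. In the same saline comparisons Mrc1 was at 0.38 and 0.56 and Stab1 at 0.13 and 0.33, without a call. Among mice given DEX, the medians of PS and of AS against Con were -0.54 and -0.79 for endothelium (3 lower in AS). They were -0.62 and -0.47 for fibroblasts and -0.68 and -0.93 for mural cells (2 lower in AS). In AS against Con under DEX, 0.76% of all genes were called lower. Mrc1 was at -0.78 and -0.56 under DEX, and Stab1 at -0.56 and -0.67.

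On the level scale, summed blood endothelium counts were 6522 to 8820 in Con saline and 7232 to 10742 in Con DEX, 6106 to 8711 in PS saline and 3887 to 8712 in PS DEX, and 5878 to 9626 in AS saline and 4377 to 6744 in AS DEX. Summed fibroblast counts were 3772 to 5620 and 4691 to 7641 in Con, 3533 to 8071 and 2454 to 7088 in PS, and 5011 to 7544 and 3567 to 6733 in AS. None of these marker genes was at 0 in a library. PS DEX mouse 34, the lowest in Mrc1 and Stab1, had the lowest sums of both lists among all 24 libraries (3887 and 2454). PS DEX mouse 56, high in Mrc1, had the highest of its group (8712 and 7088). Endothelium sums went the other way in some libraries. AS DEX mouse 60, lowest of its group in Mrc1 (127) and Stab1 (443), had the highest endothelium sum (6744) and the lowest fibroblast sum (3567). PS saline mouse 68, lowest of its group in Mrc1 (139), also had the highest endothelium sum (8711) and the lowest fibroblast sum (3533). The part of vessel and meningeal content of the tissue block in the values of Mrc1, Stab1, Cbr2, Pf4 and Lyve1 was not tested. Lyve1 is also a lymphatic gene; of 5 lymphatic endothelium genes 2 were measured, both also made by other brain cells. Prox1 was at -0.10, -0.06 and 0.06 (SE 0.13 each) in Con, PS and AS, and Pdpn at -0.15, -0.49 and -0.45 (SE 0.17 each), with adjusted p of 0.779, 0.128 and 0.138 in limma.

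**Figure D4:**
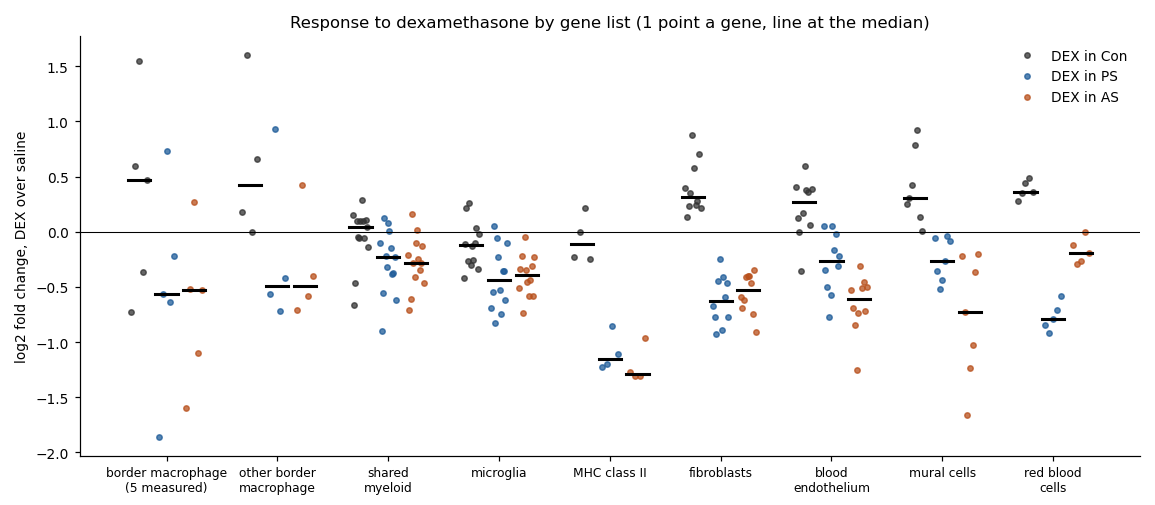
Log2 fold change of DEX over saline for the genes of 9 lists (horizontal axis) in Con, PS and AS mice; each point is 1 gene and the line is the list's median. The medians of the border macrophage, fibroblast, endothelium and mural lists lie above 0 in Con and below 0 in PS and AS, while MHC class II medians are -0.12, -1.15 and -1.29.

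The genes whose level across the 24 libraries was most like that of Pf4, among the 13266 genes that averaged 20 or more normalized counts, were Colca2 (Pearson r = 0.86), Steap3 (0.83), Alpl (0.83), Pros1 (0.83) and Slc16a1 (0.82). The libraries fall into saline and DEX groups, so these values hold the response to DEX. For deviations from the 6 group means, the nearest were Colca2 (0.82), Ccl6 (0.79), Slc16a9 (0.75), Copz2 (0.74) and Nqo1 (0.72). Within the set, the correlation of levels with Pf4 was 0.64 for Cbr2, 0.44 for Mrc1, 0.33 for Stab1 and -0.29 for Lyve1, whereas that of deviations was 0.60 for Lyve1, 0.36 for Mrc1, 0.26 for Cbr2 and 0.19 for Stab1. The DEX responses of Lyve1 and Pf4 had opposite signs, and the value of 0.60 pools the 6 groups. In AS DEX, mouse 38 was lowest in both genes (Pf4 1.97, Lyve1 47.9) and mouse 72 highest in both (21.9 and 101). In Con DEX, mouse 122 was lowest in Pf4 (8.13) and highest in Lyve1 (108). In AS saline, mouse 44 was highest in Pf4 (35.9) and lowest in Lyve1 (49.0). Joint variation within every group is therefore not shown. These values are descriptions over 24 libraries that share depth and tissue content.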

How the data were processed

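Total RNA of the prefrontal cortex was sequenced as stranded poly(A) libraries, 1 per mouse. Per the labels and the study's methods, the authors trimmed reads with fastp 0.20.1, aligned them to GRCm38 with HISAT2 2.2.1, counted genes with featureCounts (Subread 2.0) on GENCODE vM22 and divided counts by DESeq2 1.36.0 size factors. The deposited values are this normalized signal, and 100.0% of them were whole multiples of 1 read within 0.01 read, so read counts were recovered. The authors' tables of comparisons hold fold changes and p-values and were not used.

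The main test was limma 3.58.1 (R 4.3.3) on log2(normalized count + 1) with a trended prior, 1 mean per group over all 24 libraries and Benjamini-Hochberg adjustment over 14074 genes, called at an adjusted p under 0.1. The study's DESeq2 model was an alternative, since the deposited values are normalized. A fold is 2 to the power of the fitted difference, and it understates changes of low genes. The tests were two-sided. Where groups are said not to overlap, the share of all genes with such a separation was not counted. Alternatives were a pseudocount of 8, a mean of at least 20, quantile normalization, only the groups compared, library size as covariate, edgeR 4.0.16 and DESeq2 1.42.0 on recovered reads, and leaving out each library. The fit was checked on simulated data with the same spread for all genes and changes only in genes above a minimum of expected reads. That check does not speak for genes as low and variable as Pf4.

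Coordinates and exon lengths are from GENCODE vM21 on GRCm38. The genes, lists, motifs and tests were chosen with earlier results of these data known. All measured genes of the set are named. From each list, genes were to be named if they were the 2 most abundant or if 5 or fewer were called. The text does not follow this throughout. No gene is named from the endothelium, fibroblast, mural and red blood cell lists, for instance, and only Cd74 from MHC class II. Genes like Pf4 are the 5 nearest by r. A gene of the microglia list is not reported here. Mice carry a number each and were not paired. Counting error alone is large for Pf4, which had 3 reads in 1 library.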

Additional observations from a re-analysis of the deposited data

Results flagged for a closer look

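In 42 groups of 4 libraries (the 5 genes and the ratios of Lyve1 and of Pf4 to Mrc1 in 6 groups), 2 held a library far from the other 3 by Dixon's criterion, near the 1 in 20 that chance gives. The Lyve1 to Mrc1 ratio was 0.902 in PS DEX mouse 34, where the other 3 were 0.324 to 0.387, and 0.283 in AS saline mouse 44, where the other 3 were 0.191 to 0.206. Both are libraries with a low Mrc1 level for their group.

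The DEX response of Lyve1 differed between AS and Con by -1.27 on the log2 scale (interaction term in limma, adjusted p = 0.0744). This call was lost in 11 of 31 alternatives, which were 10 of the 24 fits without 1 library and the fit with library size as a covariate. The medians of the fibroblast, blood endothelium and mural lists for the same term were -0.98, -0.89 and -1.03.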

How the results depend on the processing

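Each result was recomputed under 31 alternatives, 24 of which left out 1 library. No gene's called direction was reversed. The number of the 5 genes called changed as follows. For DEX in Con, 1 became 3 when only the groups compared were fitted. For DEX in PS, 2 became 3 with library size as a covariate (Cbr2 added). For DEX in AS, 2 became 1 when only the groups compared were fitted and 3 with edgeR (Stab1 added). For AS against Con under DEX, 0 became 1 with only the groups compared and with DESeq2. For the DEX response of AS minus Con, 1 became 0 with library size as a covariate and 2 with DESeq2. The cause was not tested. When 1 library was left out, the number called was 1 for DEX in Con, 1 to 2 for DEX in PS, 1 to 3 for DEX in AS, 0 to 2 for PS against Con under DEX, 0 to 1 for AS against Con under DEX, and 0 to 2 for the DEX response of AS minus Con. It stayed at 0 for the 3 saline comparisons and for PS minus Con and AS minus PS. DESeq2 gave Pf4 in AS no adjusted p after its filter on low counts (log2 difference -1.44). Over all genes, counts moved with the tool: for the DEX response of AS minus Con, limma called 49, edgeR 77 and DESeq2 439, for PS against Con with saline 213, 212 and 431, for AS against Con with saline 22, 26 and 99, for PS against Con under DEX 28, 26 and 225, and for AS against Con under DEX 122, 145 and 417. For AS against PS with saline, DESeq2 called 11, and for PS minus Con it called 23, where limma and edgeR called 0. Depth limits Pf4, with 6 libraries under 10 reads. No paired analysis was possible because mouse numbers do not recur between groups.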
